A study of Oryza sativa Japonica Group with 17 samples.

Results

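The osdrm2 small RNA list held 1181 positions that were covered by at least 10 identical reads and were not touched, by even 1 bp, by any alignment of the Cr-DJ list. They were picked from 20576 listed osdrm2 positions by the number of identical lines in one list and the absence of an overlapping line in the other. Read numbers and absence in Cr-DJ therefore describe how the members were chosen and are given without a test. The series has 17 samples of rice (Oryza sativa, japonica), all from 12-day-old seedling leaves grown on hormone-free medium, and 4 of them are used here. They are the small RNA library of osdrm2 and that of Cr-DJ, the genotype it is set against, both of DongJin source, and the chromatin immunoprecipitation libraries of H3K27me3 in Cr-DJ and of H3K9me2 in ZH11, a different variety, with 1 library each. The labels do not give the kind of osdrm2 allele, the number of lines or the number of plants pooled. The osdrm2 RNA-seq was not analysed here, so whether OsDRM2 is lost in osdrm2 was not checked, and neither small RNAs nor peaks can check the labelled tissue.

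DRM2 is the cytosine methyltransferase at the end of RNA-directed DNA methylation. In the pathway as worked out in Arabidopsis, RNA polymerase IV transcripts are made double-stranded by RDR2 and cut by DCL3 into 24-nt small interfering RNAs, which guide AGO4 to scaffold transcripts of RNA polymerase V, where DRM2 is recruited. In rice, many 24-nt RNAs come from short inverted-repeat transposable elements near genes, whereas H3K9me2 marks silent heterochromatin and H3K27me3 marks Polycomb-repressed genes.

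Each small RNA list gives 1 alignment per line, and a count of identical lines is called the number of reads at a position here. Totals of reads are thus totals of alignments, and a read listed at several places would enter each time. The osdrm2 list held 155764 reads, against 106418 reads at 11243 positions in Cr-DJ. No position in either list had fewer than 4 reads. A member may thus have had up to 3 Cr-DJ reads at its own start and end and still be unlisted. Each shifted position that overlaps it may have had up to 3 unlisted Cr-DJ reads as well. The totals are those of the lists and not the depth of the libraries, and with 1 library a genotype no difference between genotypes has a replicate check. All lines are written on the plus strand, and the sources used here do not give how reads that match several places were assigned. Leaves were sequenced in bulk, so fewer cells making a small RNA and less of it per cell cannot be told apart. Wilson 95% intervals below cover counting error only, because amplified reads are not independent molecules. Positions that lie close together are not independent either, so intervals of shares of positions may be too narrow.

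Absence from the other list was common. Of all listed osdrm2 positions 82.9% had no overlapping Cr-DJ alignment. Of 2574 osdrm2 positions with at least 10 reads, 45.9% were members, and of the 18002 osdrm2 positions with 4 to 9 reads 88.2% likewise had no overlapping Cr-DJ alignment. In the opposite direction, 1401 of 2270 Cr-DJ positions with at least 10 reads (61.7%) had no overlapping osdrm2 alignment. The minimum of 10 reads is the same in both lists, though they differ in size. The osdrm2 list holds 1.46 times as many reads, so by listed reads 10 in Cr-DJ scale to 14.6 in osdrm2. Comparisons with positions found in Cr-DJ only, here and below, are not adjusted for this or for the unlike numbers of positions. The members held 16668 reads, which is 10.7% of the osdrm2 list (Wilson 95% interval 10.5 to 10.9%). The 1393 abundant osdrm2 positions that Cr-DJ overlapped held 48393 reads (31.1%).

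Members were modest in abundance. Their median was 12 reads (middle 50% from 11 to 15), against 17 reads (12 to 29) for the abundant osdrm2 positions that Cr-DJ overlapped and 14 reads (11 to 20) for the 1401 positions found in Cr-DJ only. At the threshold itself, 285 members had exactly 10 reads and 421 further osdrm2 positions without a Cr-DJ alignment had exactly 9. Members made up 66.0% of the osdrm2 positions with 10 reads, 59.3% of those with 11 to 14, 43.3% of those with 15 to 19, 29.1% of those with 20 to 29 and 8.17% of those with 30 or more. The share thus fell with each step in abundance, and 30 members reached 30 reads.

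**Figure D1:**
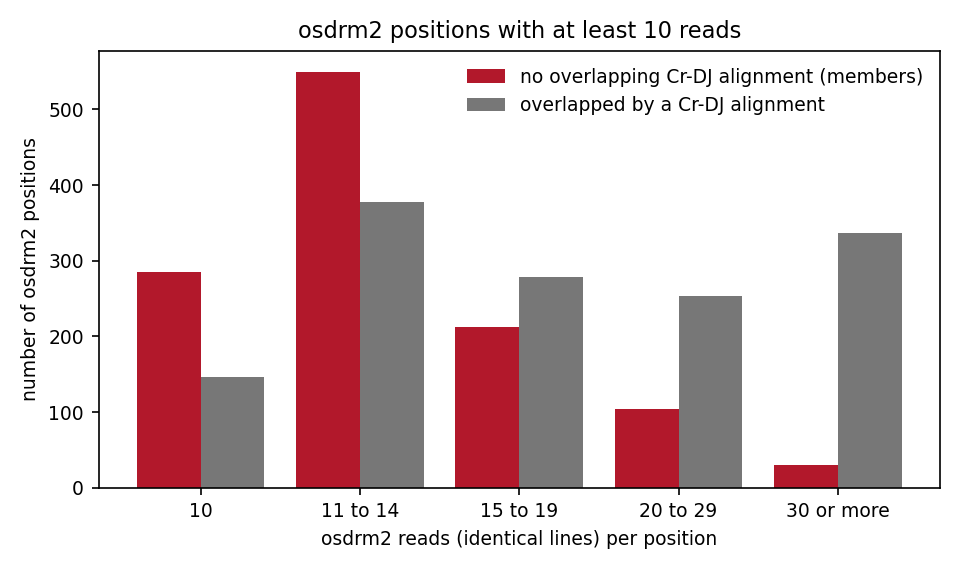
Number of osdrm2 positions (vertical axis) by reads per position (horizontal axis), for members, which no Cr-DJ alignment overlaps (red), and for positions that a Cr-DJ alignment overlaps (grey). Members outnumber the overlapped positions at 10 reads (285 against 147) and at 11 to 14 reads (550 against 377), and are the fewer at 30 or more (30 against 337).

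In length the members were nearly uniform, like both lists, which were deposited as 24-nt lists. The share of 24 nt was 99.8% for members, 98.9% for all listed osdrm2 positions and 99.6% for the positions found in Cr-DJ only. All but 2 were 24 nt long, and the exceptions, named after their values were seen, were 23-nt positions on chromosome 7 from 21305600 to 21305622 (10 reads) and on chromosome 8 from 15452274 to 15452296 (12 reads). For 1173 of 1181 members all lines stood in 1 unbroken block of the file, and the other 8 had 2 blocks.

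Most members had no other member nearby. Joined at gaps of up to 1000 bp, they formed 1119 clusters, of which 1067 had 1 member, 47 had 2 and 5 had 3 or more. The members in clusters of several numbered 114 (9.65%). Within those 52 clusters, 33 of 62 successive pairs had starts at most 23 bp apart, so that the members overlapped, and 27 of these pairs had starts shifted by 1 to 5 bp. A further 24 pairs had starts more than 100 bp apart. Members without another member within that gap made up 90.3% of all members, against 62.9% of the abundant osdrm2 positions that Cr-DJ overlapped and 75.5% of the positions found in Cr-DJ only, each set joined within itself.

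Most members had no overlapping osdrm2 neighbour of any listed abundance. No other listed osdrm2 position overlapped 885 members (74.9%, Wilson 95% interval 72.4 to 77.3%), and 566 (47.9%) had none within 1000 bp. For abundant osdrm2 positions that Cr-DJ overlapped the shares were 49.0% (46.4 to 51.7%) and 28.4%. Among the positions found in Cr-DJ only, set against their own list, they were 57.0% (54.4 to 59.6%) and 43.6%. Over all osdrm2 positions, 81.7% had no overlapping neighbour and 54.9% had none within 1000 bp. By either measure the members' share lies below that of their whole list and above that of the abundant positions shared with Cr-DJ. Read numbers differ between these sets, and their part in the difference was not tested.

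The surroundings of the members fell into 3 kinds. For 526 members (44.5%) neither list had another position within 1000 bp, and these held 7188 reads with a median of 12 and a highest value of 60. For 479 members (40.6%) the osdrm2 list had further positions within 1000 bp and the Cr-DJ list had none, with 6887 reads in all. The remaining 176 members (14.9%) had at least 1 Cr-DJ position within 1000 bp without touching it. There the Cr-DJ reads within 1000 bp had a median of 6 and reached 1110, and at 46 members they equalled or exceeded the member's own reads. A Cr-DJ position also lay within 1000 bp of 12.1% of the osdrm2 positions with 4 to 9 reads that Cr-DJ did not overlap. An osdrm2 position lay within 1000 bp of 13.1% of the positions found in Cr-DJ only. Both shares are near the members' 14.9%. Shares of the other kinds are given for members only.

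**Figure D2:**
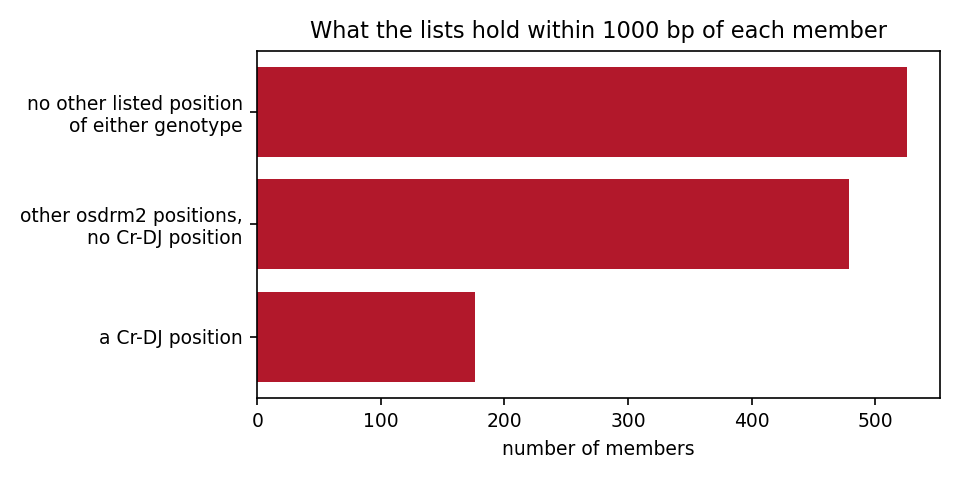
Number of members (horizontal axis) by what the lists hold within 1000 bp of them. For 526 members there is no other listed position of either genotype, for 479 there are other osdrm2 positions but none of Cr-DJ, and for 176 there is a Cr-DJ position that does not touch the member. The last kind is 14.9% of members, near the 12.1% of osdrm2 positions with 4 to 9 reads that Cr-DJ did not overlap (not drawn).

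The median distance from a member to the nearest Cr-DJ alignment was 10.7 kb (binomial 95% interval of the median 9.55 to 11.8 kb), with the middle 50% from 2.94 to 24.4 kb. It was 12.1 kb for the osdrm2 positions with 4 to 9 reads that Cr-DJ did not overlap, and 6.91 kb (6.07 to 7.55 kb) for the positions found in Cr-DJ only, measured to the osdrm2 list. A Cr-DJ alignment lay within 100 bp of 55 members (4.66%), and of 2.73% of the osdrm2 positions with 4 to 9 reads that Cr-DJ did not overlap. An osdrm2 alignment lay within 100 bp of 2.14% of the positions found in Cr-DJ only. Distances depend on how many positions the other list holds, which is more for osdrm2. The longest distances were 293 kb on chromosome 5 from 12280747 to 12280770 (34 reads), 281 kb on chromosome 7 from 14046457 to 14046480 (11 reads) and 214 kb on chromosome 4 from 7829718 to 7829741 (10 reads). These members lay in stretches where the Cr-DJ list is empty. The nearest Cr-DJ alignment began directly after the member on chromosome 8 from 9194124 to 9194147 (21 reads), where the adjoining Cr-DJ position from 9194148 to 9194171 held 78 reads. The next 2 in order were members on chromosome 6 from 14503207 to 14503230 (13 reads), 2 bp from a Cr-DJ position of 4 reads, and on chromosome 8 from 15705163 to 15705186 (10 reads), 3 bp from one of 6 reads.

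The most abundant member had 114 reads and lay on chromosome 10 from 15836938 to 15836961. It sat inside an H3K27me3 peak of 2848 bp with a fold enrichment of 3.01, the authors' own value, had 1 other osdrm2 position of 5 reads within 1000 bp, and lay 6.92 kb from the nearest Cr-DJ alignment. No other member came near this number. The next were 60 reads on chromosome 12 from 22280429 to 22280452, 58 reads on chromosome 3 from 9676014 to 9676037 and 54 reads on chromosome 8 from 9193582 to 9193605. Then followed 53 reads on chromosome 6 from 30957179 to 30957202, 50 reads on chromosome 6 from 7318800 to 7318823 and 45 reads on chromosome 3 from 20583737 to 20583760. The list of 10 ended with 42 reads on chromosome 3 from 25185478 to 25185501, 41 reads on chromosome 1 from 24548407 to 24548430 and 39 reads on chromosome 7 from 15243453 to 15243476. Of these 10, the members on chromosome 12, on chromosome 6 at 7318800, on chromosome 1 and on chromosome 7 had no other listed position of either genotype within 1000 bp. Those on chromosome 8, on chromosome 6 at 30957179 and on chromosome 3 at 25185478 had Cr-DJ reads there, numbering 227, 9 and 38. Only the members on chromosome 10 and on chromosome 3 at 25185478 lay in an H3K27me3 peak, and none of the 10 in an H3K9me2 peak.

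The largest cluster lay on chromosome 8 from 9193231 to 9194234 and joined 6 members with 144 reads. Its members had 10, 54, 13, 31, 21 and 15 reads, in order along the chromosome, at starts 351, 480, 632, 893 and 980 bp after the first, so no pair of them overlapped. Within 1000 bp of this cluster the osdrm2 list held 16 positions with 476 reads in all, and the Cr-DJ list 7 positions with 236 reads. Here the members were additional positions of a stretch that was also listed in Cr-DJ.

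Other clusters were piles of shifted reads with no Cr-DJ position within 1000 bp. On chromosome 9 from 10406962 to 10406989, 4 members had 30, 11, 16 and 17 reads at starts 2, 3 and 4 bp after the first. On chromosome 7 from 16726640 to 16726670, 4 members had 10, 14, 10 and 17 reads at starts 2, 5 and 7 bp after the first. On chromosome 8 from 12459521 to 12459555, 3 members had 10, 12 and 25 reads, 67466 bp from the nearest Cr-DJ alignment. In these 3 piles the members overlapped one another and spanned 28, 31 and 35 bp. A pair on chromosome 3 from 20583733 to 20583760 held 16 and 45 reads, 62575 bp from Cr-DJ. On chromosome 12 from 23467251 to 23467559, 3 members held 15, 12 and 11 reads, the last pair shifted by 1 bp and the first 284 bp before them.

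H3K27me3 peaks of Cr-DJ covered 87 members (7.37%, Wilson 95% interval 6.01 to 9.0%). All listed osdrm2 positions had a share of 7.03% and all listed Cr-DJ positions one of 11.3%, so the members stood close to their own list. The share was 6.46% (5.29 to 7.88%) for abundant osdrm2 positions that Cr-DJ overlapped, and 12.3% (10.7 to 14.1%) for the positions found in Cr-DJ only, an interval apart from that of the members. With a minimum of 15 reads the shares were 8.67% (6.14 to 12.1%) for osdrm2 only and 9.91% (7.87 to 12.4%) for Cr-DJ only, and with a minimum of 20 reads 10.4% (6.33 to 16.8%) and 11.7% (8.90 to 15.4%). At these minimums the intervals overlap.

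H3K9me2 peaks of ZH11 covered 66 members (5.59%, Wilson 95% interval 4.42 to 7.05%), against 4 of the 1401 positions found in Cr-DJ only (0.286%, 0.111 to 0.732%). All listed osdrm2 positions had a share of 6.25% and all listed Cr-DJ positions one of 1.84%. The members' share is thus near that of their list as a whole, and the lists as a whole differ too. By chromosome, H3K9me2 peaks covered a mean of 6.07% (chromosome 3) to 8.91% (chromosome 7) of whole 1 Mb bins. The members' 5.59% is below the lowest of these means, so it shows no excess over the peaks' own cover. The positions found in Cr-DJ only lie further below. In all, H3K9me2 peaks span 29.3 Mb and H3K27me3 peaks 28.1 Mb. Abundant osdrm2 positions that Cr-DJ overlapped stood at 4.52% (3.55 to 5.74%), and osdrm2 positions with 4 to 9 reads that Cr-DJ did not overlap at 6.69% (6.31 to 7.09%). The 4 Cr-DJ positions, named after their values were seen, lay on chromosome 3 from 11560019 to 11560042 (16 reads), on chromosome 5 from 8701868 to 8701891 (13 reads), on chromosome 6 from 11084335 to 11084358 (16 reads) and on chromosome 7 from 3239763 to 3239786 (15 reads). With a minimum of 15 reads the share was 3.47% (1.99 to 5.96%) for osdrm2 only and 0.450% (0.153 to 1.32%) for Cr-DJ only. With a minimum of 20 reads it was 2.99% (1.17 to 7.42%), against 0 of 383, which allows a share of up to 0.783% (Wilson upper end 0.993%). The intervals of these sets thus stayed apart while the members' share became smaller. They overlapped at 20 reads when no alignment of the other list was allowed within 1000 bp (0.932 to 7.71% against 0 to 1.09%). Abundant osdrm2 positions that Cr-DJ overlapped stood at 5.18% at 15 reads and 5.92% at 20, above the members, with overlapping intervals. The peaks come from another variety than the small RNAs, and its part in these shares was not tested.

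**Figure D3:**
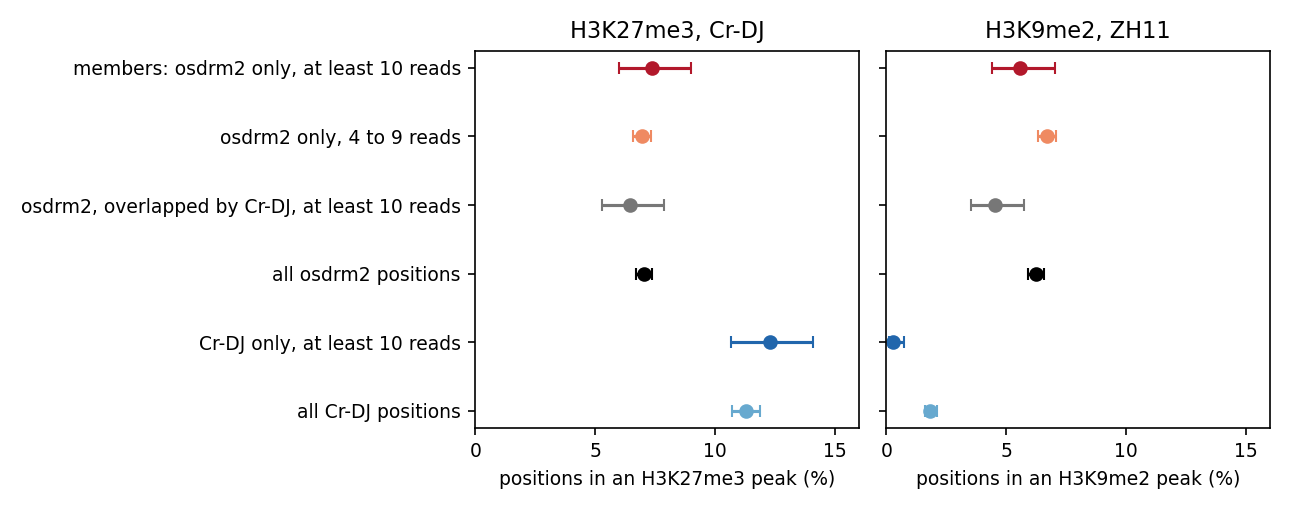
Share of positions that overlap a peak (horizontal axes, percent; left H3K27me3 in Cr-DJ, right H3K9me2 in ZH11) for 6 sets of positions (vertical axis); points are shares and bars Wilson 95% intervals. Members lie at 7.37% and 5.59%, near all osdrm2 positions at 7.03% and 6.25%, whereas positions found in Cr-DJ only lie at 12.3% and 0.286%.

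Within the members, cover was also counted by abundance and by surroundings. By reads, H3K9me2 peaks held 14 of 285 members with 10 reads (4.91%), 40 of 550 with 11 to 14 (7.27%), 8 of 212 with 15 to 19 (3.77%), 4 of 104 with 20 to 29 (3.85%) and 0 of 30 with 30 or more, which allows a share of up to 10%. For H3K27me3 the corresponding shares were 5.96%, 7.27%, 7.55%, 10.6% and 10% (3 of 30). Neighbouring classes have overlapping intervals for either mark. By surroundings, H3K9me2 held 37 of the 526 members with no other listed position within 1000 bp (7.03%, 5.15 to 9.55%), 25 of the 479 with osdrm2 neighbours only (5.22%, 3.56 to 7.59%) and 4 of the 176 near a Cr-DJ position (2.27%, 0.887 to 5.70%). These intervals overlap as well. Counting each cluster once gave 7.33% for H3K27me3 and 5.72% for H3K9me2.

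The 66 members in H3K9me2 peaks were spread over 64 peaks, 0.630% of 10159, and the 87 members in H3K27me3 peaks over 81 peaks, 0.605% of 13385. The H3K27me3 peaks with a member had a median length of 3815 bp against 1541 bp for all peaks of this mark. A longer peak has more room for any position, and the part of this in the difference was not tested. Lengths of peaks that hold other listed osdrm2 positions were not compared. H3K9me2 peaks with a member had a median of 2149 bp against 2466 bp for all. In 60 of the 64 H3K9me2 peaks (93.8%) and 65 of the 81 H3K27me3 peaks (80.2%) there was no Cr-DJ alignment. Over all peaks the share without one was higher, 98.9% for H3K9me2 and 93.0% for H3K27me3. In 39 of the H3K9me2 peaks and 36 of the H3K27me3 peaks the member was the sole osdrm2 position.

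The H3K9me2 peaks with a pair of members were 2. On chromosome 3 the peak from 22304822 to 22306373 (fold 3.01) held members of 10 and 11 reads with starts 721 bp apart, 32480 bp from the nearest Cr-DJ alignment. On chromosome 7 the peak from 23921997 to 23923230 (fold 4.59) held overlapping members of 15 and 12 reads, 12766 bp from Cr-DJ. Members inside peaks of either mark had the same median, 12 reads, as those outside.

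Among members in H3K27me3 peaks, the clusters with the most reads after that of chromosome 10 were a pair on chromosome 3 from 25185478 to 25185503 and a member on chromosome 7 from 14827837 to 14827860. The pair had 42 and 16 reads in a peak of 7006 bp (fold 2.16), and Cr-DJ had 38 reads within 1000 bp. The member on chromosome 7 had 34 reads in a peak of 5560 bp (fold 2.95), 4869 bp from Cr-DJ. Pairs on chromosome 8 from 15726419 to 15726446 (20 and 12 reads, fold 2.15) and on chromosome 7 from 8180497 to 8180533 (10 and 21 reads, fold 4.78) completed the 5, with no Cr-DJ position within 1000 bp. Peaks of both marks covered 3 members, named after their values were seen, on chromosome 2 from 12253629 to 12253652 (12 reads), on chromosome 3 from 1134152 to 1134175 (10 reads) and on chromosome 8 from 10608978 to 10609001 (19 reads).

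All 12 chromosomes held members, between 49 on chromosome 12 and 152 on chromosome 1, and no osdrm2 position with at least 10 reads lay on an unanchored sequence. Per Mb this was between 1.78 on chromosome 12 and 3.84 on chromosome 7. As a share of the osdrm2 positions with at least 10 reads, members made up 33.1% on chromosome 12 (49 of 148, Wilson 95% interval 26.0 to 41.0%), against 45.9% over all chromosomes. The shares on the other chromosomes ran from 41.7% on chromosome 9 to 51.9% on chromosome 3, and each of their intervals included 45.9%. On chromosome 12 the 1 Mb bins from 9000001 and from 13000001 held 13 and 9 such positions and no member. The interval counts positions as independent, and chromosome 12 is the lowest of 12, so it is given as a description. With each chromosome cut into 3 equal stretches, the share ran from 20.9% (9 of 43) in the middle of chromosome 12 to 64.1% (25 of 39) in the middle of chromosome 8, the extremes of 36 stretches, singled out after their values were seen.

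**Figure D4:**
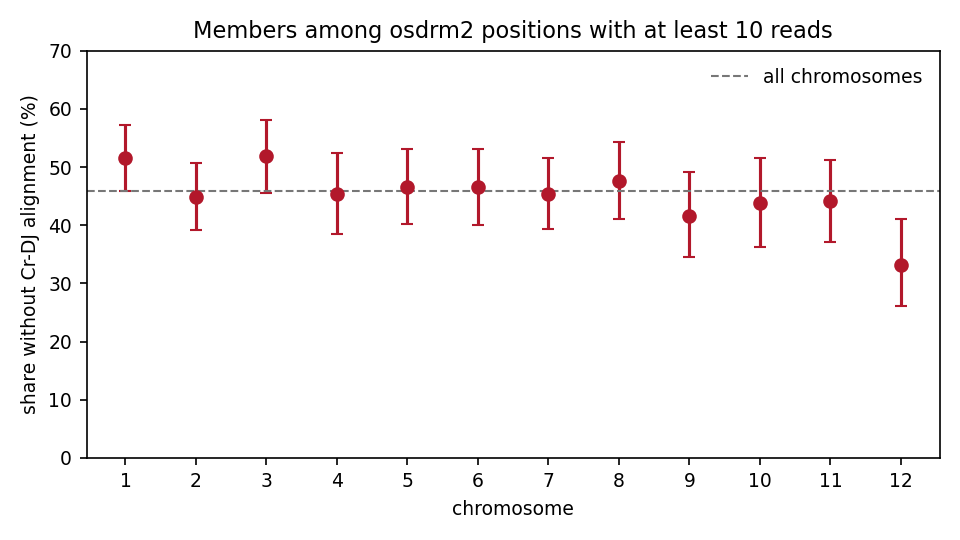
Members as a share of all osdrm2 positions with at least 10 reads (vertical axis, percent) on each chromosome (horizontal axis); points are shares, bars Wilson 95% intervals and the dashed line the share over all chromosomes, 45.9%. The interval of chromosome 12 (26.0 to 41.0%) lies below the line, but intervals count positions as independent although some lie close together.

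At a scale of 1 Mb members were scattered. Of 380 bins 33 held no member, 297 held 1 to 5 and 50 held 6 or more, with a median of 3. Bins with at least 9 members, singled out after their values were seen, were on chromosome 5 from 6000001 to 7000000 with 12, on chromosome 1 from 9000001 to 10000000 with 10, on chromosome 7 from 1 to 1000000 with 10 and on chromosome 8 from 9000001 to 10000000 with 9. The osdrm2 positions with at least 10 reads in these bins numbered 21, 13, 49 and 20. The positions found in Cr-DJ only numbered 2, 3, 3 and 0.

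As a landmark along each chromosome, the 1 Mb bin with the most H3K9me2 peak cover was taken from the peak list, for instance the bin from 18000001 to 19000000 on chromosome 1, where peaks covered 14.1%. No centromere annotation was used. Members lay at a median of 7.64 Mb from this landmark (binomial 95% interval of the median 7.11 to 8.05 Mb), against 8.42 Mb (8.12 to 8.72 Mb) for abundant osdrm2 positions that Cr-DJ overlapped and 10.7 Mb (10.3 to 11 Mb) for the positions found in Cr-DJ only. All listed osdrm2 positions had a median of 7.90 Mb and all listed Cr-DJ positions one of 9.82 Mb. Members thus lay nearer the landmark than positions found in Cr-DJ only, with intervals apart, as did the osdrm2 list as a whole.

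By distance class, members against positions found in Cr-DJ only numbered 172 against 84 within 2 Mb, 218 against 149 at 2 to 5 Mb, 384 against 402 at 5 to 10 Mb, 279 against 451 at 10 to 15 Mb and 128 against 313 beyond. The ratio of members to positions found in Cr-DJ only was thus smaller at each step outward, 2.05 within 2 Mb and 0.409 at 15 Mb and more. For all listed osdrm2 positions over all listed Cr-DJ positions it was 2.83 and 1.23. Among osdrm2 positions with at least 10 reads, members made up 51.8% (46.4 to 57.1%) within 2 Mb, 49.0% at 2 to 5 Mb, 45.3% at 5 to 10 Mb, 41.4% (37.7 to 45.2%) at 10 to 15 Mb and 46.4% (40.6 to 52.3%) beyond.

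**Figure D5:**
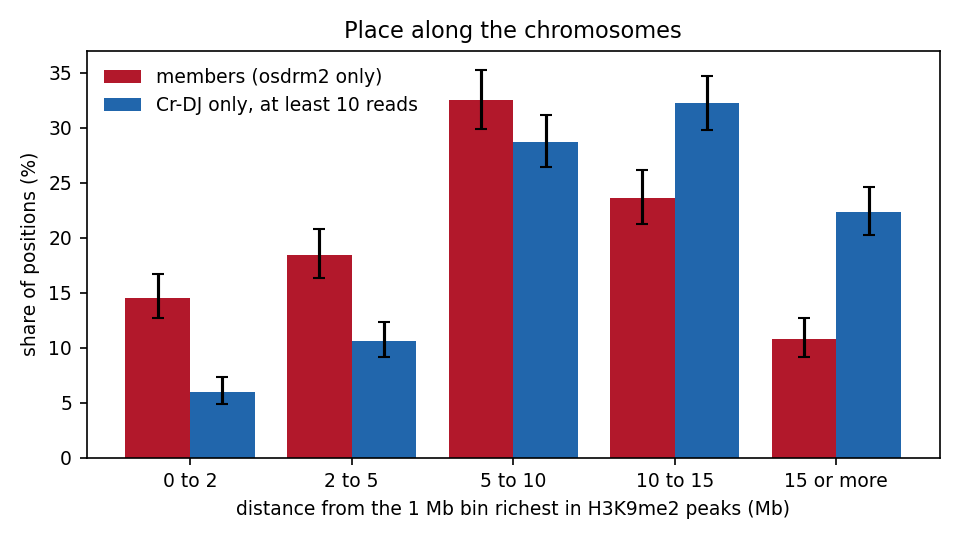
Share of positions (vertical axis, percent) by distance in Mb from the 1 Mb bin of the same chromosome that is richest in H3K9me2 peaks (horizontal axis), for members (red) and for positions found in Cr-DJ only (blue); bars are shares and whiskers Wilson 95% intervals. Within 2 Mb lie 14.6% of the members and 6.0% of the positions found in Cr-DJ only, and at 15 Mb or more 10.8% and 22.4%. Not drawn are all listed osdrm2 positions, with 12.9% within 2 Mb, near the members, and all listed Cr-DJ positions, with 8.32%.

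By distance class, the shares in H3K9me2 peaks were 15 of 172 members (8.72%) against 0 of 84 positions found in Cr-DJ only within 2 Mb, which allows a share of up to 3.57%, and 6.88% against 0.671% at 2 to 5 Mb. They were 4.69% against 0.498% at 5 to 10 Mb, 3.94% against 0.222% at 10 to 15 Mb, and 7 of 128 members (5.47%) against 0 of 313 beyond, which allows up to 0.958%. Over all listed osdrm2 positions the shares in these classes were 7.22%, 7.10%, 5.38%, 6.36% and 6.12%. The members' interval included that value in each of the 5 classes. With 4 positions found in Cr-DJ only in H3K9me2 peaks altogether, the classes add little to the comparison over all positions. The landmark comes from the same H3K9me2 peaks, so distance and cover are not separate measures.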

How the data were processed

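The authors deposited the small RNA reads as 1 alignment per line with start and end coordinates (other columns hold constants). The submitters' processing notes list Bowtie and Bowtie2 (2.1.0) but not which of them made these lists, and the aligner and genome build of these lists are not given in the sources used here. Peaks were called by the authors with MACS 1.4.2 at a p-value limit of 1e-05 without a control, on 1 library per mark with 19709518 reads (H3K27me3) and 19160896 reads (H3K9me2), per the file headers. The count of reads per peak, the peak score (from log10 of p) and the fold, a ratio over the local background, are deposited values, per the file headers. The series' file list assigns the H3K9me2 peaks to Cr-DJ, whereas the file header and the label name ZH11, which was followed.

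Identical lines were counted per position. An overlap is 1 bp, clusters join members at gaps of up to 1000 bp, and distances run between nearest edges. Chromosome length is the largest coordinate in the files, and the landmark is the 1 Mb bin with the most H3K9me2 cover among whole bins. Genotypes have 1 library each, so no test was made. Where a count was 0, the share it allows was taken as that of 3 positions. This is not a Wilson limit, and Wilson upper ends are higher, for instance 11.4% for 0 of 30 members in H3K9me2 peaks. Members and lists of settings were chosen with earlier results of these data known. The named positions followed a fixed rule: the 10 members with the most reads, the 5 clusters with the most reads and the 5 with the most members, clusters with at least 2 members in an H3K9me2 peak, the 5 clusters with the most reads in H3K27me3 peaks, the 3 members nearest to and farthest from Cr-DJ, and the numbers of positions with 10 and 9 reads. Python 3.11.15 with numpy 2.4.6, pandas 2.3.3 and scipy 1.17.1 was used. Distances, overlaps, clusters and intervals were tested on simulated positions, and overlap counts were checked with bedtools. Gene expression, bisulfite and other RNA-seq data were not used here. The expression table has no coordinates by which genes could be set beside positions.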

Additional observations from a re-analysis of the deposited data

How the results depend on the processing

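Of 59 values recomputed under other settings, 38 stayed within 1.5 times the reported count or within the reported value's 95% interval. The read minimum moved most. There were 8798 members in 7445 clusters holding 39.9% of listed reads at 5 reads, 346 in 334 clusters holding 4.59% at 15 reads, and 134 in 131 clusters holding 2.34% at 20 reads. Cover by H3K9me2 was 3.47% at 15 and 2.99% at 20 reads, cover by H3K27me3 10.4% at 20 reads, and the median distance from the landmark 6.90 Mb at 20 reads. Asking for no Cr-DJ alignment within 100 bp, none within 1000 bp, or none with the same start and end gave 10.2%, 9.04% and 12.0% of listed reads. The last 2 settings gave a median distance to Cr-DJ of 13500 and 8500 bp. Within 1000 bp of a peak lay 17.4% (H3K27me3) and 12.7% (H3K9me2) of members, and H3K9me2 peaks with a score of at least 100 covered 4.06%. Fewer or more positions enter by construction of each setting, and no further cause was tested. Lines of exactly 24 nt left all 7 kinds of value within these bounds, and gaps of 200 and 5000 bp the number of clusters, for which alone they were run. No paired analysis was possible because each genotype has 1 small RNA library. Neither list goes below 4 reads, so absence means fewer than that at each overlapping position, not over all of them together. The origin of this floor and the library totals are not given in the sources used here.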
